A study of Drosophila melanogaster with 5 samples.

Results

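Hexokinases and sugar transporters were examined in whole males of D. melanogaster, as 4 hexokinase genes (Hex-A, Hex-C, Hex-t1 and Hex-t2) and 6 transporter genes (Tret1-1, Tret1-2, CG10960, Glut1, sut1 and sut2). The genes were chosen by name, and every counted RefSeq transcript of them was taken, which gave 34 of the 34111 transcripts in the deposited counts and 10 of the 16976 gene symbols. Of these 34 transcripts, 17 had a count in at least 1 library, and 16 passed the filter of at least 10 counts summed over the libraries, so that each of the 10 genes had at least 1 tested transcript. LB-flies (low background) developed in an underground laboratory shielded from cosmic rays and from the radiation of the rock around it, and provided 3 libraries. NB-flies (natural background) developed in a laboratory at ground level and provided 2. All flies were wild-type Oregon-R males, labelled as 3 days old, and each library was made from the pooled polyadenylated RNA of males from 1 vial. No transgene, drug or mutation was used in either group, and the laboratories differed in place as well as in radiation.

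Sugar circulates in the fly mainly as trehalose, a disaccharide of glucose that the fat body releases into the haemolymph, together with some free glucose. Cells take up sugars through transporters of the major facilitator family, and hexokinases then phosphorylate glucose to glucose 6-phosphate, which cannot leave the cell and feeds glycolysis, the pentose phosphate pathway, glycogen and trehalose. Hex-A is the broadly expressed enzyme, Hex-C is best known from the fat body and gut, and Hex-t1 and Hex-t2 are paralogs expressed in the testis. Tret1-1 carries trehalose, Glut1 belongs to the family of facilitative glucose transporters, and Tret1-2, CG10960 (now named nebu), sut1 and sut2 are related to known sugar transporters.

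Hex-C, both transcripts of Tret1-1 and 1 transcript of CG10960 had lower levels in every LB library than in both NB libraries, by between 1.49-fold and 1.96-fold in mean level. NM_001274303 and NM_001274305 of Glut1 were also lower in every LB library, but held few counts. Hex-t1 and Hex-t2 had higher levels in every LB library, by 1.20-fold and 1.25-fold. Of all 17337 tested transcripts, 13.1% were lower and 14.8% were higher in every LB library. Hex-A, Tret1-2, sut1 and sut2 overlapped between the groups. No transcript of the whole table passed an FDR of 0.05 and a 1.5-fold limit in the quasi-likelihood test of edgeR (0 of 17337, 0% called, smallest adjusted p = 0.1745), although 1313 had an unadjusted p under 0.05. DESeq2 called 76 transcripts at the same limits, 45 of the 12293 with an adjusted p lower in LB-flies (0.366%) and 31 higher (0.252%). Hex-C and CG10960 were among the 45, and none of the 11 members with an adjusted p from DESeq2 was among the 31.

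Between 23027411 and 24790062 reads were counted in the LB libraries and 26036113 and 25001792 in the NB libraries. Levels are given as CPM, the reads of a transcript per 1000000 counted reads, scaled with the TMM factors of edgeR. Mitochondrial transcripts made up 13.88%, 14.97% and 8.19% of the counted reads in LB libraries 1, 2 and 3, against 14.51% and 13.90% in the NB libraries, so that LB library 3 stood apart. A count of 3 corresponded to between 0.115 and 0.136 CPM. For the tested members other than Glut1, counting error came to between 0.776% and 5.70% of a value. The spread between libraries of a group was as high as 28.2% of the mean (NM_165845 of Tret1-1, LB-flies). For Hex-t1 and sut2 in LB-flies it was 3.88% and 4.65%, near their counting error. Fewer cells of a type and less RNA per cell cannot be told apart in whole flies.

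What the counts of a gene describe depends on its transcript models, since reads that could not be given to 1 transcript (between 53.9% and 56.5% of the records of a library) are in no count. Hex-C, Hex-t1, Hex-t2, Tret1-2, sut1 and sut2 have a single model and were counted over their whole length. Hex-A lies at X:9585675-9589813 on the plus strand of dm6 (BDGP6) with 3 models of 1 exon. Its first pair share the same 2512 bases, and the third extends them to 4139 bases. Only the extended model has exon bases of its own, 1627 of them, and none of these is coding. Likewise, 1 of its 3 transcripts (NM_001272455) held all counts of Hex-A, and the other two had no count in any library. Tret1-1 (2R:11665768-11674782, plus strand) has 2 models, of which one has 1395 bases of its own, 1188 of them coding, and the other has 243, of which 84 are coding. CG10960 (3L:12824880-12843106, minus strand) has 3 models with 365, 669 and 56 bases of their own, all at alternative 5′ exons. Of the 20 models of Glut1 (3L:914074-993788, plus strand), 5 have bases of their own, between 5 and 734, and 15 have none. The same numbers of Glut1 transcripts, 5 and 15, had a count and had none. The annotation does not pair its models with the RefSeq transcripts, so that for Tret1-1, CG10960 and Glut1 it is not said which model a counted transcript is.

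**Figure D1:**
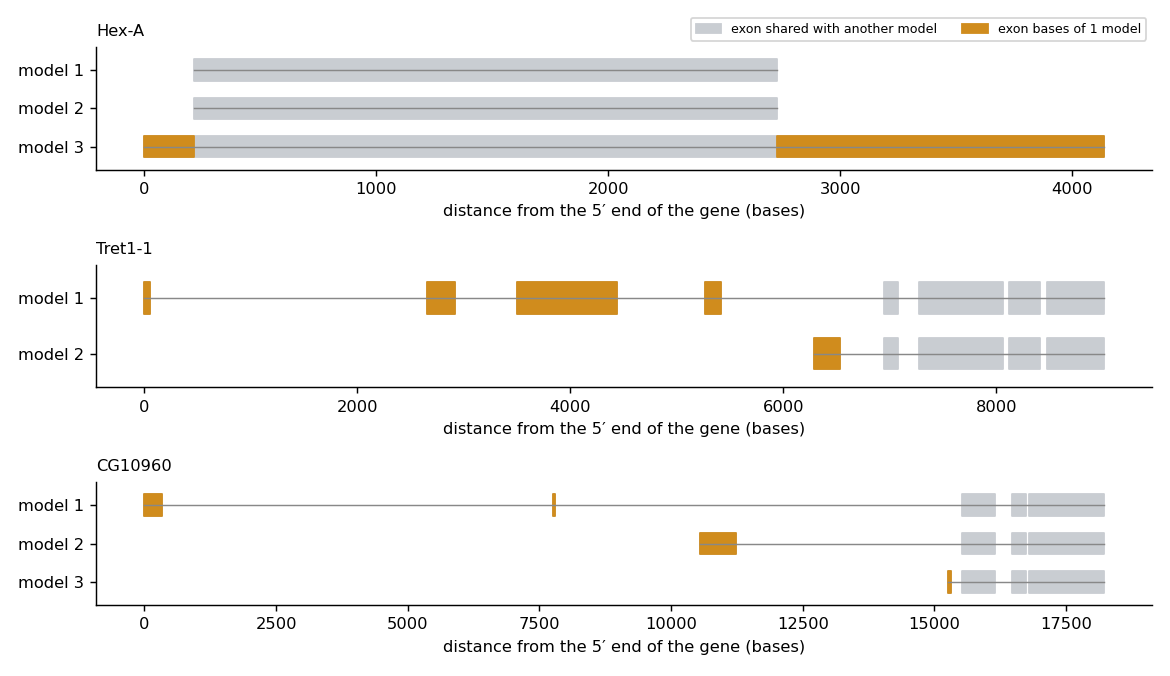
Exon models of Hex-A, Tret1-1 and CG10960, with the distance from the 5′ end of the gene in bases on the horizontal axis and 1 row for each model. Grey exons are shared with another model and orange bases belong to 1 model, so that only reads that touched orange bases could be counted. Orange are 1627 bases at the ends of Hex-A, 1395 and 243 bases of Tret1-1, and 365, 669 and 56 bases of CG10960. Whether reads that ran on into grey bases were counted is not known, since the counting mode is not given.

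Hex-C is a gene of 1 exon with 1493 bases at 2R:15218837-15220329 on the minus strand. It overlaps the span of CG8079 on the other strand without a shared exon base. Its level was 351, 325 and 360 CPM in LB libraries 1, 2 and 3, against 669 and 520 CPM in NB libraries 1 and 2. The highest LB library was well below the lower NB library (13.1% of all transcripts were lower in every LB library). The NB pair differed more from each other than the LB libraries did. LB-flies averaged 345.5 ± 18.0 CPM (SD, n = 3), against 594.3 ± 106 CPM for NB-flies (SD, n = 2). The log2 fold change was -0.78 (SE 0.15, 95% interval -1.15 to -0.42), with an unadjusted p of 0.00178 and an adjusted p of 0.625 in edgeR, and the p ranked as the 39th smallest of the table. DESeq2 gave -0.78 with an adjusted p of 0.0161. This call was lost when LB library 2 (adjusted p = 0.682), LB library 3 (0.061), NB library 1 (0.794) or NB library 2 (0.0827) was left out, and remained without LB library 1 (0.0186). The log2 fold change from DESeq2 was -0.56 without NB library 1.

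Hex-A, whose counts came from reads that touched the noncoding ends of its extended model, had 342, 280 and 226 CPM in the LB libraries, against 310 and 315 CPM in the NB libraries. The LB libraries lay on both sides of the NB libraries and spread 20.6% around their mean, against 1.17% in NB-flies. The log2 fold change was -0.14 (95% interval -0.60 to 0.31, edgeR), and edgeR gave values between -0.30 and -0.014 when single libraries were left out. The levels of its coding exons were not counted.

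The testis paralogs Hex-t1 (3R:26449079-26450585) and Hex-t2 (3R:26450671-26452327) stand side by side on the plus strand, 85 bases apart. Hex-t2 had 401, 447 and 456 CPM in the LB libraries, against 349 and 343 CPM in the NB libraries. Hex-t1 had 37.6, 40.6 and 39.6 CPM in the LB libraries, against 33.1 and 32.6 CPM in the NB libraries. In both genes the groups did not overlap (14.8% of all transcripts were higher in every LB library), and the NB pair lay close together. For Hex-t1 the NB spread of 1.16% was below the counting error of between 3.19% and 3.49%, so that this closeness does not measure precision. The log2 fold change of Hex-t2 was 0.33 (SE 0.13, 95% interval 0.025 to 0.63), with an unadjusted p of 0.038 and an adjusted p of 0.625 in edgeR. That of Hex-t1 was 0.26 (SE 0.12, 95% interval -0.031 to 0.54), with an unadjusted p of 0.0721. Without LB library 2, LB library 3, NB library 1 or NB library 2 the unadjusted p of Hex-t2 was between 0.11 and 0.191, and its log2 fold change between 0.28 and 0.36.

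**Figure D2:**
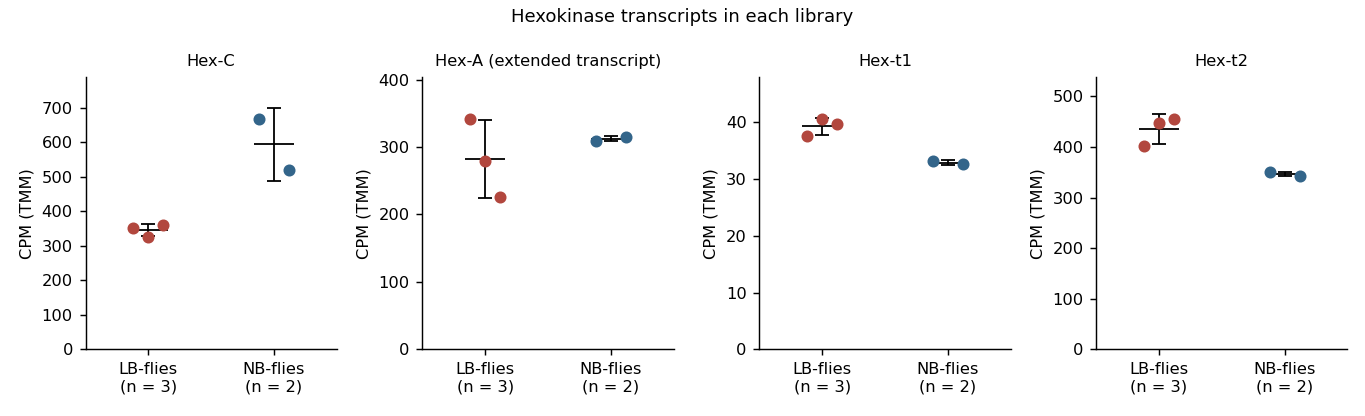
Levels of the hexokinase transcripts in CPM (TMM-scaled) in LB-flies (red, n = 3) and NB-flies (blue, n = 2), with 1 point for each library and black bars for the mean and SD. Hex-C was between 325 and 360 CPM in LB-flies, against 520 and 669 CPM in NB-flies, Hex-A overlapped, and Hex-t1 and Hex-t2 were higher in each LB library.

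Per length, the order of the hexokinases changed between the groups. Hex-t2 averaged 277 ± 18.8 CPM per kb of exon in the LB libraries (SD, n = 3) and 221 ± 2.93 CPM per kb in the NB libraries (SD, n = 2), while Hex-C had 231 ± 12.0 in LB-flies and 398 ± 70.7 in NB-flies. Hex-t2 was thus above Hex-C in each LB library (255 CPM per kb for Hex-t2 and 235 for Hex-C in the first, 285 and 218 in the second, 290 and 241 in the third) and below it in each NB library (223 and 448, 219 and 348). Hex-t1 followed with 26.04 ± 1.01 CPM per kb in LB-flies and 21.8 ± 0.253 in NB-flies. Among the transporters with 1 model, sut1 had 39.7 ± 5.19 CPM per kb in LB-flies and 44.7 ± 1.79 in NB-flies. Tret1-2 had 22.3 ± 2.02 in LB-flies and 19.9 ± 4.26 in NB-flies, and sut2 had 21.5 ± 1.00 in LB-flies and 19.5 ± 1.85 in NB-flies, so that these last levels were not separated from each other in either group. No level per length is given for Hex-A, Tret1-1, CG10960 and Glut1, of which only parts were counted.

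Testis markers were read beside Hex-t1 and Hex-t2. Of the 19 tested transcripts of 17 marker genes, 17 had a positive log2 fold change. In 9 each LB library was above both NB libraries (14.8% of all transcripts) and in 1 each was below both (13.1% of all). Mst84Da and Mst98Ca, 2 of the 19, were higher with an unadjusted p under 0.05 in edgeR (3.91% of all), and no testis marker was called by edgeR or DESeq2. Their summed level was 8289, 8291 and 8157 CPM in the LB libraries, against 7081 and 6346 CPM in the NB libraries, and none of the 17 genes was untested. Set against this sum, Hex-t2 made up 4.84%, 5.39% and 5.59% in the LB libraries, against 4.93% and 5.40% in the NB libraries. Hex-t1 made up 0.454%, 0.489% and 0.485% in the LB libraries, against 0.468% and 0.513% in the NB libraries. Both overlapped between the groups on this scale, which was chosen after the values were seen.

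Fat body and midgut markers were read beside Hex-C. The 6 fat body genes gave 9 tested transcripts, 4 with a negative and 5 with a positive log2 fold change, and a median of 0.11. In every LB library 1 was lower (13.1% of all transcripts) and 0 were higher (14.8% of all). They summed to 345, 514 and 866 CPM in the LB libraries, against 504 and 265 CPM in the NB libraries. Hex-C was 102%, 63.4% and 41.6% of that sum in the LB libraries, against 133% and 196% in the NB libraries, so that the groups did not overlap, but this rested on Gnmt. Gnmt, a glycine methyltransferase, gave 266, 392 and 724 CPM of the sum in the LB libraries, against 325 and 113 CPM in the NB libraries. Without it, in an alternative chosen after the values were seen, the fat body sum was 79.3, 121 and 142 CPM in the LB libraries, against 179 and 152 CPM in the NB libraries, lower in each LB library. Hex-C was then 443%, 268% and 253% of the sum in the LB libraries, against 374% and 343% in the NB libraries, which overlapped. The lipoprotein genes Mtp (log2 fold change -0.45, lower in every LB library) and apolpp (-0.74, overlapping) had the opposite sign to Gnmt (1.07), and none of the 3 had an unadjusted p under 0.05 in edgeR. These 3 were named for the smallest p of the list and do not stand for its other transcripts. Of the 8 tested midgut transcripts of 10 genes (betaTry and gammaTry were untested), 7 had a negative log2 fold change, and 4 were lower in every LB library (13.1% of all transcripts). Jon99Ciii, a digestive protease, was the 1 of 8 that was lower with an unadjusted p under 0.05 in edgeR (3.66% of all). The midgut sum was 6095, 8225 and 6569 CPM in the LB libraries, against 9329 and 9189 CPM in the NB libraries. Hex-C was 5.76%, 3.96% and 5.48% of the midgut sum in the LB libraries, against 7.17% and 5.65% in the NB libraries, which overlapped. The part of either tissue in the level of Hex-C was not tested.

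Tret1-1, the trehalose transporter, was lower in LB-flies in both parts that could be counted. Its first transcript (NM_136849) had 291, 223 and 291 CPM in the LB libraries, against 417 and 384 CPM in the NB libraries. The second (NM_165845) had 17.1, 26.7 and 30.8 CPM in the LB libraries, against 49.6 and 42.4 CPM in the NB libraries. No LB library reached the lower NB library in either transcript (13.1% of all transcripts were lower in every LB library). The log2 fold changes in edgeR were -0.58 (SE 0.16, 95% interval -0.96 to -0.19) with an unadjusted p of 0.0102, and -0.89 (SE 0.25, 95% interval -1.50 to -0.27) with an unadjusted p of 0.0119. Both adjusted p-values were 0.625, and DESeq2 gave adjusted p-values of 0.289 and 0.314. Both parts are read from the same flies and gene, so that they are not independent of each other. Without NB library 1 the unadjusted p-values in edgeR were 0.0657 and 0.0809.

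Tret1-2 (2R:11675935-11678014) lies 1152 bases downstream of Tret1-1 on the same strand, and both overlap the span of Roc2 on the other strand without a shared exon base. Tret1-2 had 35.0, 36.8 and 41.6 CPM in the LB libraries, against 38.9 and 28.7 CPM in the NB libraries. The groups overlapped, and the log2 fold change was 0.16 (95% interval -0.26 to 0.59, edgeR). Its sign rested on NB library 2, without which the value was -0.046.

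CG10960 had the smallest p of all members. Its transcript NM_168523 had 31.0, 32.4 and 37.0 CPM in the LB libraries, against 75.0 and 56.0 CPM in the NB libraries. The LB libraries lay close together and well below the NB pair (13.1% of all transcripts were lower in every LB library). LB-flies averaged 33.5 ± 3.11 CPM (SD, n = 3), against 65.5 ± 13.4 CPM for NB-flies (SD, n = 2). The log2 fold change was -0.97 (SE 0.17, 95% interval -1.37 to -0.56), with an unadjusted p of 0.001 and an adjusted p of 0.625 in edgeR, the 26th smallest p of the table. DESeq2 gave an adjusted p of 0.00815. This call was lost without LB library 2 (adjusted p = 0.319) or NB library 1 (0.608), and remained without LB library 1 (0.0142), LB library 3 (0.0115) or NB library 2 (0.0372).

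The other counted transcripts of CG10960 start at other exons. NM_140348 had 19.4, 14.0 and 22.5 CPM in the LB libraries, against 27.3 and 22.2 CPM in the NB libraries. These groups overlapped, since LB library 3 was just above NB library 2, and the log2 fold change was -0.41 (95% interval -0.97 to 0.15, edgeR). NM_168522 had no count in the LB libraries, against 4 counts and 1 count in the NB libraries, and was not tested. Whether the 2 tested transcripts differ in their change was not tested. With the counts of the gene summed before the fit, the log2 fold change was -0.80 with an unadjusted p of 0.00336 in edgeR. Set against the midgut sum, NM_168523 and the other transcripts together made up 0.827%, 0.565% and 0.905% in the LB libraries, against 1.10% and 0.851% in the NB libraries, which overlapped.

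The paralogs sut1 (2R:8082976-8087151) and sut2 (2R:8087396-8089297) are 244 bases apart on the plus strand, and sut1 shares exon bases with slv on the other strand. sut1 had 81.5, 101 and 105 CPM in the LB libraries, against 105 and 111 CPM in the NB libraries. sut2 had 35.0, 35.9 and 32.8 CPM in the LB libraries, against 33.4 and 29.2 CPM in the NB libraries. Both overlapped between the groups, with log2 fold changes of -0.17 (95% interval -0.52 to 0.18) and 0.14 (95% interval -0.18 to 0.46) in edgeR. A difference of 1.5-fold in either direction lies outside both intervals.

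Glut1 was counted only in traces. Its most counted transcript, NM_001274301, had 13, 14 and 20 counts in the LB libraries, against 19 and 26 counts in the NB libraries, and a log2 fold change of -0.42 (95% interval -1.30 to 0.46, edgeR). NM_001274303 had 1, 2 and 4 counts in the LB libraries, against 10 and 7 counts in the NB libraries. Its fitted log2 fold change was -1.72 (95% interval -3.34 to -0.11) with an unadjusted p of 0.04 in edgeR, and 2 of its LB libraries held fewer than 3 counts. NM_001274305 had 6, 4 and 7 counts in the LB libraries, against 8 and 8 counts in the NB libraries. For NM_001274306 (5, 6 and 12 counts in the LB libraries, against 6 and 9 in the NB libraries) and NM_001316474 (2, 3 and 1 counts in the LB libraries, against 1 and 7 in the NB libraries) the groups overlapped. Most exons of Glut1 are shared between its models, so that the level of the gene cannot be read from these counts.

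**Figure D3:**
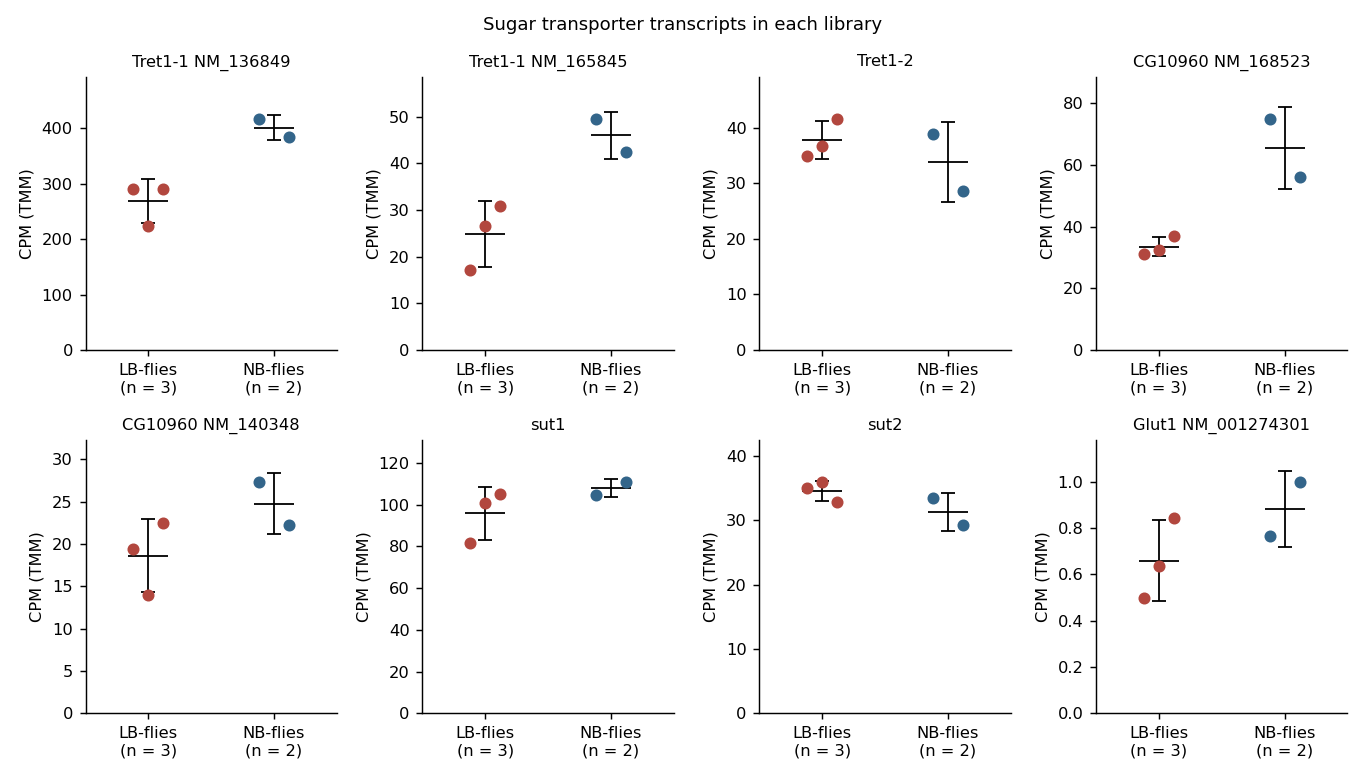
Levels of the sugar transporter transcripts in CPM (TMM-scaled, 1 axis for each transcript) in LB-flies (red, n = 3) and NB-flies (blue, n = 2), with 1 point for each library and black bars for the mean and SD. Both transcripts of Tret1-1 and NM_168523 of CG10960 were lower in each LB library, and Tret1-2, NM_140348, sut1, sut2 and NM_001274301 of Glut1 overlapped.

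Glial and neuronal markers were read beside Tret1-1, which is known from the glia of the blood-brain barrier. Of the 7 tested glial transcripts of 6 genes, 5 had a negative log2 fold change (52.55% of all transcripts), and none had an unadjusted p under 0.05 in edgeR. In every LB library 2 were lower (13.1% of all) and 1 was higher (14.8% of all). They summed to 123, 133 and 150 CPM in the LB libraries, against 191 and 148 CPM in the NB libraries. Tret1-1 was 252%, 188% and 215% of that sum in the LB libraries, against 244% and 288% in the NB libraries, which overlapped. Of the 19 neuronal transcripts of 8 genes, 17 had a negative log2 fold change, and 8 were lower in every LB library (13.1% of all transcripts). Syt1 was the 1 of 19 that was lower with an unadjusted p under 0.05 in edgeR (3.66% of all). The neuronal sum was 266, 211 and 185 CPM in the LB libraries, against 270 and 285 CPM in the NB libraries. The part of these cells in the level of Tret1-1 was not tested.

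Among the 16 tested transcripts, 11 had a negative and 5 a positive log2 fold change, with a median of -0.41, against a median of -0.023 and 52.55% negative values over all 17337. Glut1 gave 5 of the 16, all in traces, and of these only NM_001274306 was positive. The median fell between NM_001274305 of Glut1 and NM_140348 of CG10960, so that it rests on the traces too. Of the 16, 5 had an unadjusted p under 0.05 in edgeR and were lower in LB-flies (Hex-C, both of Tret1-1, NM_168523 of CG10960 and NM_001274303 of Glut1), against 3.66% of all transcripts. Hex-t2 was the 1 that was higher at that p, against 3.91% of all. With the transcripts of a gene summed before the fit, 3 of the 10 genes were lower and 1 was higher at that p, against 1200 of all 14057 in either direction. Every LB library was below both NB libraries in 6 of the 16, against 13.1% of all, and above both in 2 of the 16, against 14.8% of all. The 6 include NM_001274303 and NM_001274305 of Glut1, and both transcripts of Tret1-1. When NB library 1 was left out, 2 transcripts had an unadjusted p under 0.05, both lower in LB-flies (edgeR), and the count of lower ones was between 2 and 6 over the libraries left out in turn. The members were chosen with these results known, so that the counts describe them and are not a test of the group.

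**Figure D4:**
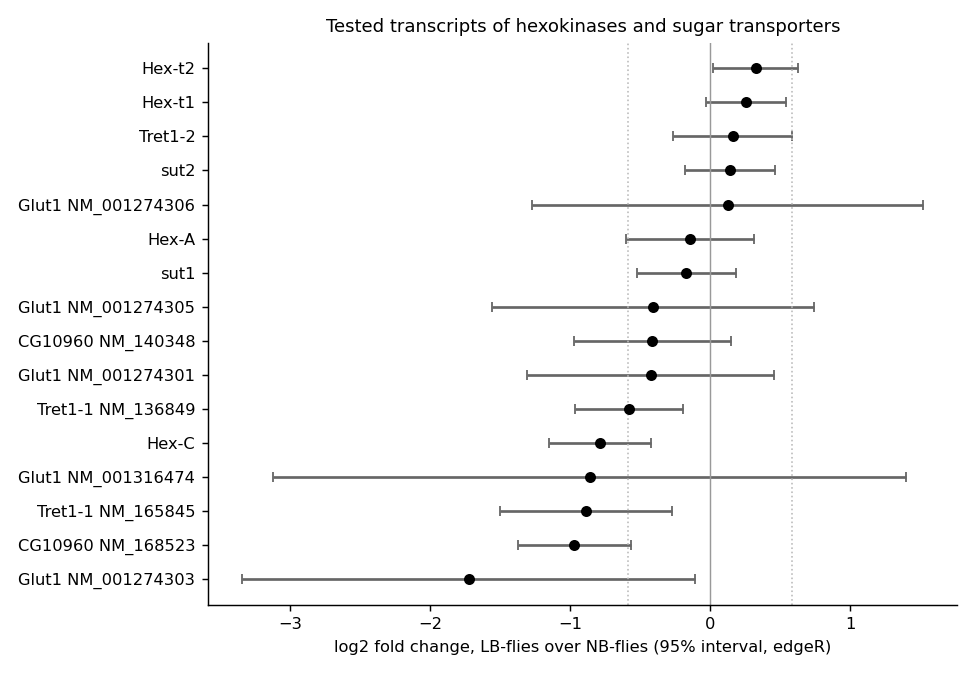
Log2 fold changes of the 16 tested transcripts, LB-flies over NB-flies, with 95% intervals from edgeR, ordered from the highest at the top. The solid line marks no difference and the dotted lines 1.5-fold, and the interval of Hex-t2 lies above 0 while those of Hex-C, both transcripts of Tret1-1, NM_168523 of CG10960 and NM_001274303 of Glut1 lie below it.

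Within-library ratios depend on the scaling of the library only through the 0.5 CPM that was added to both levels, and 7 were compared with an exact permutation test. With 3 against 2 libraries, the two-sided test could not give a p under 0.2. Tret1-1 over Tret1-2 was 3.12, 2.75 and 2.94 on the log2 scale in the LB libraries, against 3.57 and 3.87 in the NB libraries, a difference of -0.79 (exact permutation p = 0.2, adjusted p = 0.28). Hex-C over Hex-A was 0.038, 0.217 and 0.67 in the LB libraries, against 1.11 and 0.722 in the NB libraries, a difference of -0.61 (exact permutation p = 0.2). Hex-t1 and Hex-t2 over Hex-A were higher in every LB library, with differences of 0.42 and 0.49 in the mean log2 ratio. The ratio of Hex-t2 to Hex-t1 was 3.398, 3.445 and 3.51 in the LB libraries, against 3.380 and 3.376 in the NB libraries, a difference of 0.073 on the log2 scale. Without LB library 3 these 3 differences were 0.26, 0.30 and 0.044. Those of CG10960 over Glut1 (-0.38) and sut1 over sut2 (-0.32) overlapped between the groups (exact permutation p = 0.4 for each). The value of CG10960 over Glut1 was -0.69 for the most counted transcripts alone (exact permutation p = 0.2), -0.068 without NB library 1 and -0.70 without NB library 2. That of sut1 over sut2 was -0.20 without LB library 1 and -0.18 without NB library 2. The ratio over Glut1 rests on traces, with between 13 and 26 counts of its most counted transcript in a library. The added 0.5 CPM therefore weighs in it, and its difference was -0.29 with 0.1 CPM added. The ratios over Hex-A rest on reads that touched the noncoding ends of that gene, whose level spread 20.6% over the LB libraries. Ratios that share a gene are not independent of each other. How many ratios of other genes separate the groups in this way was not computed.

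**Figure D5:**
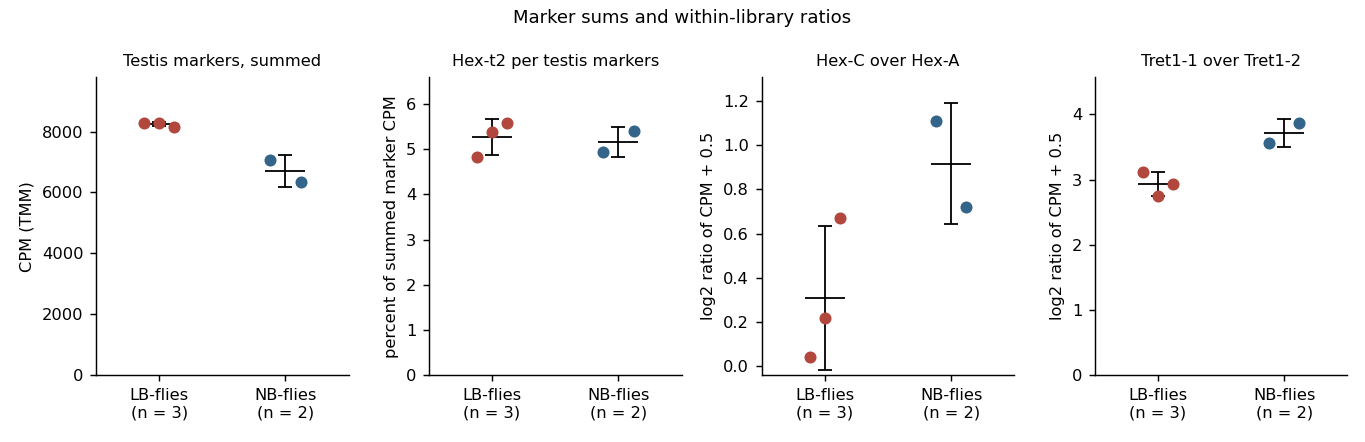
The summed testis markers (CPM), Hex-t2 as a percent of that sum, and the log2 ratios of Hex-C over Hex-A and of Tret1-1 over Tret1-2, in LB-flies (red, n = 3) and NB-flies (blue, n = 2), with 1 point for each library and black bars for the mean and SD. The testis sum was higher in each LB library, Hex-t2 per testis marker overlapped between 4.84% and 5.59% in LB-flies, against 4.93% and 5.40% in NB-flies, and both log2 ratios were lower in each LB library.

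The 22 other sugar transporter genes gave 27 tested transcripts, 14 with a negative and 13 with a positive log2 fold change and a median of -0.0039. In 4, each LB library was below both NB libraries (13.1% of all transcripts) and in 3 each was above both (14.8% of all). Of the 27, 3 predicted sugar transporters were lower with an unadjusted p under 0.05 in edgeR (3.66% of all). CG4607 had 26.8, 28.5 and 22.6 CPM in the LB libraries, against 41.0 and 39.6 CPM in the NB libraries (log2 fold change -0.64, unadjusted p = 0.00441 in edgeR). CG1208 (-0.47) and CG15406 (-0.48) were the other two. Glut3, a transporter known from the testis and named here after its value was seen, had a log2 fold change of 0.32 and was the only one higher at that p. Neither edgeR nor DESeq2 called a transcript of this list at an FDR of 0.05.

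The next list held genes of the routes from and to glucose 6-phosphate. Of the 20 tested transcripts of 11 genes, 15 had a negative log2 fold change (52.55% of all transcripts), with a median of -0.24. In 6, each LB library was below both NB libraries (13.1% of all), and 5 were lower with an unadjusted p under 0.05 in edgeR (3.66% of all). Pgm1, the phosphoglucomutase that leads to glycogen and trehalose, had 1324, 1446 and 1812 CPM in the LB libraries, against 2498 and 2037 CPM in the NB libraries (log2 fold change -0.57, 95% interval -1.02 to -0.12, unadjusted p = 0.0211 in edgeR). The gluconeogenic fructose bisphosphatase fbp had a log2 fold change of -0.49 and Glys, the glycogen synthase, of -0.63. The remaining pair, named after their values were seen, were Tps1 (-0.69), which makes trehalose, and UGP (-1.15), which makes UDP-glucose. None passed an adjusted p of 0.05 in edgeR or DESeq2, and Pgi was not tested.

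Of the 23 tested transcripts of 16 genes of sugar sensing and of insulin and adipokinetic signalling, 18 had a negative log2 fold change (52.55% of all transcripts), with a median of -0.21. The insulin-like peptide Ilp6 had 27.1, 36.8 and 30.8 CPM in the LB libraries, against 40.9 and 54.6 CPM in the NB libraries (log2 fold change -0.60, unadjusted p = 0.0197 in edgeR), and was the 1 of 23 with an unadjusted p under 0.05 (3.66% of all transcripts were lower at that p). Ilp2 had a log2 fold change of -0.42. The sugar-responsive regulator sug had 0.535, 1.00 and 3.67 CPM in the LB libraries, against 0.645 and 0.153 CPM in the NB libraries, and overlapped between the groups. No transcript of the list was called by edgeR or DESeq2.

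The other marker lists gave no transcript with an unadjusted p under 0.05 except Cp18 of the ovary list. Muscle markers had 10 lower and 8 higher transcripts. They summed to 20020, 35840 and 44050 CPM in LB libraries 1, 2 and 3, against 34700 and 29250 CPM in NB libraries 1 and 2. Accessory gland markers had 7 higher of 7, none of them in every LB library. They summed to 1724, 4748 and 5457 CPM in LB libraries 1, 2 and 3, against 3240 and 3266 CPM in NB-flies. LB library 1 was thus the lowest of the 5 libraries in both the muscle and the accessory gland sum. Malpighian tubule markers had 2 lower and 3 higher and summed to between 409 and 988 CPM in LB-flies, against 411 and 497 CPM in NB-flies. Ovary markers were nearly absent from these males, with sums between 2.18 and 3.51 CPM in LB-flies, against 1.25 and 1.65 CPM in NB-flies, and Yp1, Yp3, Cp16 and Vm26Aa were not tested.

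The transcripts whose levels ran most like Hex-C over the 5 libraries, among 6459 with a mean of at least 10 CPM, were of CG5126 (Pearson's r = 0.998), CG8004 (0.991) and CSN1b (0.989). For CG10960 they were of sotv (0.996), Sardh (0.994) and CG5126 (0.993). CG5126 had 41.7, 40.0 and 44.0 CPM in the LB libraries, against 68.6 and 55.9 CPM in the NB libraries. The size of the difference was not alike, since the log2 fold changes were -0.57 for CG5126, -0.13 for CG8004, -0.11 for CSN1b, -0.29 for sotv and -1.05 for Sardh. Sardh, a sarcosine dehydrogenase, had 123, 128 and 165 CPM in the LB libraries, against 325 and 247 CPM in the NB libraries. These values are a description of 5 points that share their libraries and scaling.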

How the data were processed

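The authors trimmed reads with Trim Galore and cutadapt, aligned them with HISAT2 to dm6 and counted them with HTSeq from strand-specific libraries. The deposited values are whole-number counts of reads per RefSeq transcript, without normalization. Ambiguous reads and the other 4 of 5 summary lines of each file were left out. The counting mode is not given in the sources used here. Of 108 genes of 1 transcript lying wholly under exons of the opposite strand, 84.3% had at least 10 counts, against 82.8% of 6500 free of such exons, so that the counting used the strand. Of the 34111 transcripts, 33874 matched a symbol in a RefSeq gene table. Transcript models and positions are from Ensembl's annotation of the same assembly.

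Libraries were grouped by their labels. Transcripts with at least 10 counts in sum (17337 of 19549 with a count) were scaled with TMM and tested with edgeR 4.0.16 in R 4.3.3 (quasi-likelihood, Benjamini-Hochberg over all, FDR 0.05 and 1.5-fold); standard errors follow from its F statistics. Alternatives were DESeq2 1.42.0, limma-voom (limma 3.58.1), other scalings and filters, summed genes, a replicate block and each library left out. DESeq2 with a library left out and the levels per marker sum, with and without Gnmt, were added after the data were seen. Ratios were log2 of CPM + 0.5 of summed transcripts, tested with scipy 1.17.1 by an exact permutation. The scripts were tested on simulated data. Between 23027411 and 26036113 counted reads per library give small counting errors except for Glut1 and the untested transcript of CG10960. P-values measure the spread between vials of 1 experiment.

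Named are all members, up to 3 transcripts of each other list with the smallest unadjusted p, and the 3 most correlated transcripts for Hex-C and CG10960. The 3 pathway lists and 9 marker lists (testis, fat body, midgut, Malpighian tubule, muscle, neurons, glia, accessory gland, ovary) were written from general knowledge; of marker lists, only genes a result turns on are named. One listed gene did not match a symbol. The members and lists were chosen with earlier results of these data known.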

Additional observations from a re-analysis of the deposited data

How the results depend on the processing

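The count of transcripts called at an FDR of 0.05 and 1.5-fold was 0 in edgeR under each scaling and filter tried, with the transcripts of a gene summed, and in limma-voom, against 76 in DESeq2. With a library left out it was between 0 and 150, the high end from DESeq2 without LB replicate 1, and edgeR gave 1 call without LB replicate 3. Libraries of the 2 groups that share a repeat number had correlated deviations from their group means of -0.156 and 0.019. Those that share the number in the library name had -0.156 and -0.179. The 2 NB libraries deviate from their mean as mirror images, so that these correlations cannot tell whether libraries of a number were handled together. The replicate block by repeat number gave 5 calls and that by library name 0. Of 341 alternative values of 23 single results, 328 kept their direction and, where tested, their side of the threshold, 6 passed it and 7 reversed. Among the ratios, CG10960 over Glut1 was between -0.70 and -0.068 and sut1 over sut2 between -0.46 and -0.18 with a library left out, and the first was -0.29 with a pseudocount of 0.1 CPM. The 6 were Hex-C and CG10960 (NM_168523) in DESeq2. The reversals were in NM_001274306 of Glut1, at -0.33 with the replicate block by repeat number and between -0.36 and 0.42 with a library left out, and in Tret1-2, between -0.046 and 0.43 with a library left out; the cause was not tested. With a library left out, over edgeR and DESeq2, the log2 fold change of Hex-C was between -0.96 and -0.56, of CG10960 between -1.17 and -0.71, and of Hex-t2 between 0.28 and 0.40. Depth limits Glut1, where counting error was between 19.6% and 100% of a value, and NM_168522 of CG10960, which had too few counts to be tested.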
